A study of Mus musculus with 28 samples.

Results

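The genes described here are 7 that serve water and potassium homeostasis in the retina, followed across single Müller glial cells (MGCs) of normal and degenerating mouse retinas. They are the water channel genes Aqp4 and Aqp1, the inwardly rectifying potassium channel genes Kcnj10 and Kcnj2, the matrix receptor gene Dag1, and the sodium pump beta subunit genes Atp1b1 and Atp1b2. They were chosen by name and not by a rule on their signals, but with earlier results of these data known. All 7 were among the 18194 genes with an array probe set annotated to that gene alone. Each cell was picked with a micropipette, for its shape, from a retina dissociated with papain, and its cDNA was amplified by PCR and hybridized to 1 array.

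The MGCs fell into 6 conditions. Adult wild-type (WT) cells (5) came from C57/BL6 mice labelled as older than 25 weeks, although the study's own text gives a lower limit for their age. The study took these WT cells from an earlier publication of the same laboratory. Rhodopsin knockout (Rhod-ko) cells came from mice labelled C57/BL6 that lack the rod-specific rhodopsin gene in all cells, 5 at 8 weeks and 5 at 25 weeks. The rd1 cells came from FVB mice with a mutation in the beta subunit of the rod cGMP phosphodiesterase, 5 at postnatal day 13 (P13) and 5 arrays at 5 weeks. Congenic FVB cells (3) at P13, from FVB.129P2-Pde6b+Tyrc-ch/AntJ mice, carried the normal phosphodiesterase gene and matched the young rd1 cells in age. The 2 time points of each model were placed at the loss of rods and at the later loss of cones. No label names the animal of a cell, so each condition counts as 1 sample of several cells, cells are described one by one, and no test between conditions was run.

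Müller glia span the whole thickness of the retina, and their endfeet surround its blood vessels and face the vitreous. They take up the potassium that active neurons release and pass it, together with water, to the vessels and the vitreous. The channel of Kcnj10 and the water channel of Aqp4 sit together at these endfeet, held there by dystroglycan, the product of Dag1, which binds laminin and agrin outside the cell and the dystrophin complex inside it. The sodium pump takes up potassium against its gradient, and its beta subunit, of which Atp1b1 and Atp1b2 encode different forms, brings the enzyme to the membrane.

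Genes counted as on in those cells whose signal reached 2000. The signal is the array's MAS5 expression value, scaled to the same trimmed mean on every array. The cells had 1847 to 3208 genes on. The arrays of cells A5 and A6 of rd1 at 5 weeks correlated at r = 0.989 over all genes, against 0.764 for the next pair, and were averaged to 1 cell, which left 27 cells. In that pair the signal of Aqp4 was 19219 and 19523, and the largest gap among the 5 members that were on in any cell was that of Kcnj10, at 7238 and 9885. Of 15 markers of MGCs that held no member, 10 to 15 were on in 22 cells and 3 to 7 in the other 5. Those 5 were the congenic cells A3, A4 and A5 and the rd1 P13 cells A1 and B1. They had 9 to 11 of 11 vascular markers on, such as the endothelial genes Cldn5 and Pecam1, and a summed vascular signal of 121860 to 177180, while the 22 had 0 to 3 on and 1162 to 42328. No congenic cell therefore had the MGC marker profile that its label implies. The P13 comparison is given with and without rd1 A1 and B1, and always with the congenic cells. The 100 strongest genes took 25.8% to 35.1% of the total signal in the Rhod-ko cells at 8 weeks and at most 21.6% in every other cell.

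**Figure D1:**
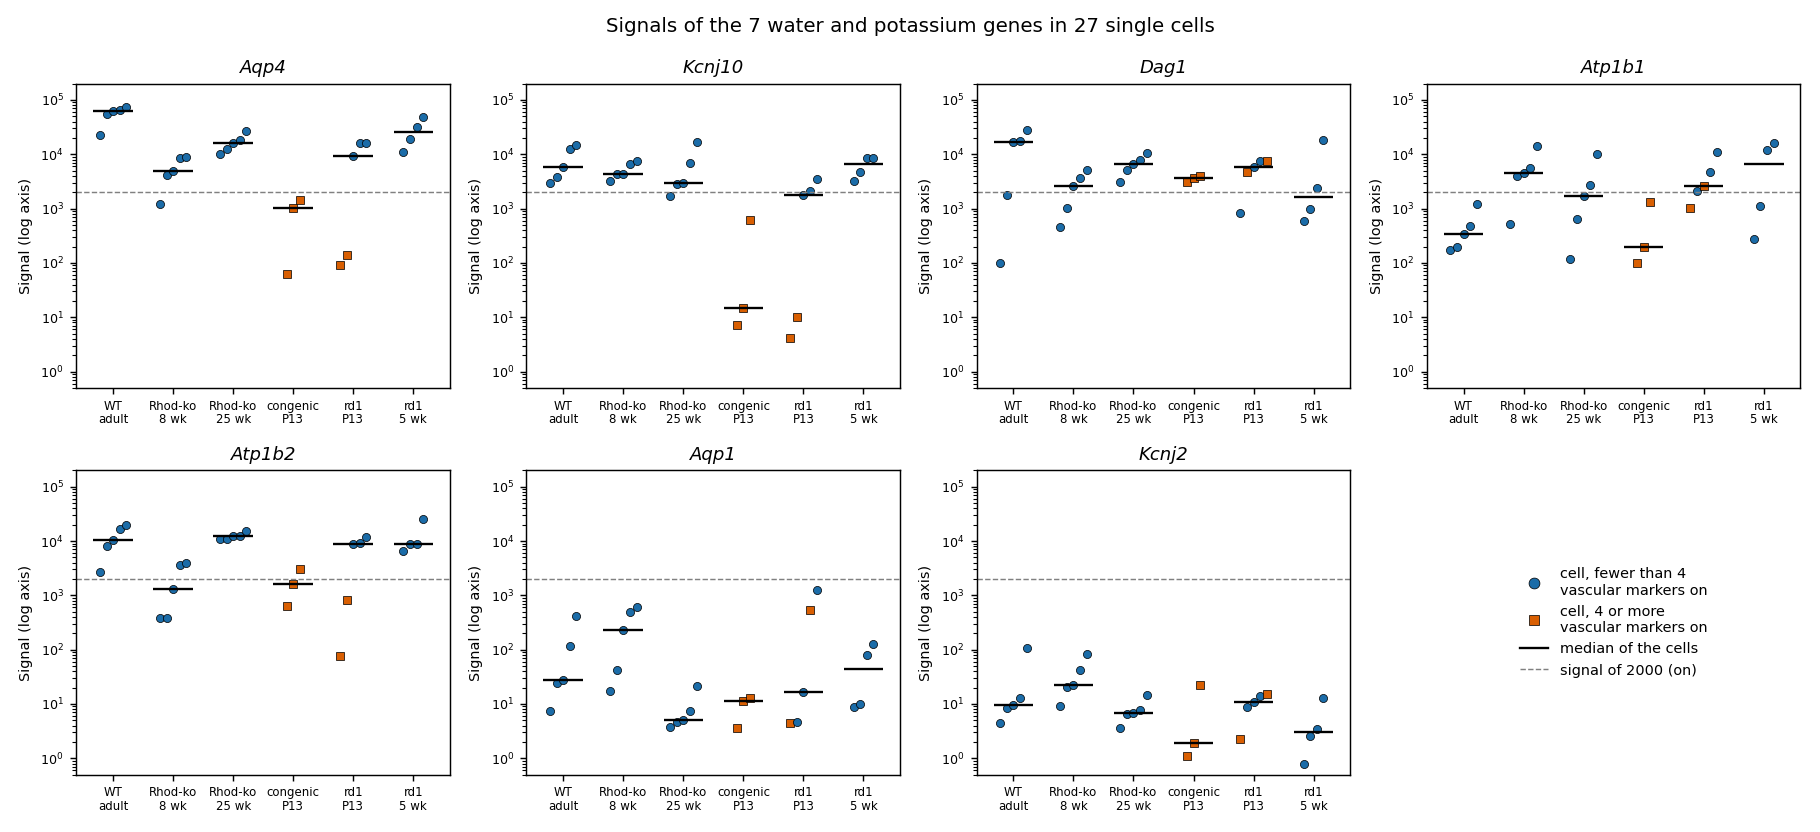
Signal of each member (vertical log axis, MAS5 signal) in each of 27 cells by condition; circles are cells with fewer than 4 vascular markers on, squares those with 4 or more, bars are medians and the dashed line marks 2000. Aqp4 was highest in adult WT, no Kcnj10 square reached the dashed line, and Aqp1 and Kcnj2 lay below it in all 27 cells.

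Aqp4, which encodes the main water channel of retinal and brain glia, was on in 21 of 27 cells. In adult WT its signal was 75747 in cell MG1, 22766 in MG16, 66144 in MG22, 62361 in MG15 and 56351 in MG3. Rhod-ko cells at 8 weeks had 9104 (cell 2), 4866 (cell 1), 8412 (cell 3), 4108 (cell 7) and 1236 (cell 8). All 5 of these lay below every WT cell, and cell 8 was the only one of them in which the gene was not on. Rhod-ko cells at 25 weeks had 18334 (A1), 16079 (A2), 9987 (A3), 12614 (A4) and 26362 (A5), all above the 8-week cells, and A5 alone above the lowest WT cell. The rd1 cells at 5 weeks had 10871 (A1), 19371 (A5 and A6), 49530 (B1) and 32008 (A8). They spread from the level of the older Rhod-ko cells into the WT range.

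At P13 the signals of Aqp4 fell into separate levels. The rd1 cells B4, B3 and A4 had 16247, 16032 and 9124, while rd1 A1 and B1 had 91.9 and 139. Congenic A3, A4 and A5 had 1036, 1410 and 62.1. The 3 high cells were the P13 cells with few vascular markers on, and the 5 low cells were those with 9 to 11 of them on.

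Aqp4 has 3 probe sets, and 1 of them gave the highest signal in 23 of 27 cells. Each of the others was on in 2 cells. One of these had 435 to 2906 in 8-week Rhod-ko, within its adult WT range of 61.3 to 8642. At 25 weeks it had 9.8 to 778, so it did not repeat the rise from 8 weeks. By medians of the highest signal per cell, the order was adult WT (62361), rd1 at 5 weeks (25690), Rhod-ko at 25 weeks (16079), rd1 at P13 (9124), Rhod-ko at 8 weeks (4866) and congenic FVB (1036). Each neighbouring pair in this order overlapped in its cells. Rod markers moved opposite to Aqp4 over all cells, though not within P13. Of 12 rod markers, 0 to 3 were on in adult WT, 1 to 2 in Rhod-ko at 25 weeks and 0 to 4 in rd1 at 5 weeks, against 2 to 8 in Rhod-ko at 8 weeks and 6 to 9 at P13. The rank correlation (Spearman's rho) of Aqp4 with their number was -0.72 over 27 cells and -0.66 over the 22 with few vascular markers on. Other lists came as close: vascular markers gave -0.67 over 27 cells. Pigment epithelium markers, at most 1 on per cell, gave -0.70 over the 22. At P13 the high cells B4, B3 and A4 had 7, 8 and 8 rod markers on, and the low cells 6 to 9. The part of any of these markers in the signals of Aqp4 was not tested.

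Aqp1, the water channel gene that in the retina is known from photoreceptors and some amacrine cells, was not on in any of 27 cells, which with an exact (Clopper-Pearson) 95% interval allows a share of up to 12.8%. That limit is for picked cells with a signal of 2000 or more, not for cells that express the gene, and it treats the cells of 6 conditions as independent draws. Its highest signal was 1263, in rd1 P13 cell A4, which also had 8 of 12 rod markers on. The next was 615, in Rhod-ko 8 weeks cell 7, which had 8 of them on as well. Other cells with as many rod markers on had 539 (rd1 P13 B1, 8 on), 16.4 (rd1 P13 B3, 8 on) and 3.6 (congenic A4, 9 on). A relation of Aqp1 to rod markers was not tested. In the Rhod-ko cells at 25 weeks it stayed between 3.8 and 21.4. Aqp1, Kcnj10 and Kcnj2 each have 1 probe set.

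Kcnj10, which encodes the weakly rectifying potassium channel of glial endfeet, was on in 20 of 27 cells. Adult WT cells had 3021 (MG1), 3870 (MG16), 12410 (MG22), 5952 (MG15) and 15031 (MG3). Rhod-ko cells at 8 weeks lay inside that range, at 7576 (cell 2), 4408 (cell 1), 6612 (cell 3), 3284 (cell 7) and 4275 (cell 8). Cells 7 and 8, with the lowest Aqp4 signals of their condition, thus kept Kcnj10 on. Rhod-ko cells at 25 weeks had 2857 (A1), 2964 (A2), 6940 (A3), 1706 (A4) and 16548 (A5), the widest spread of the adult conditions, with A5 the highest of all 27 cells. The rd1 cells at 5 weeks had 4745 (A1), 8562 (A5 and A6), 3174 (B1) and 8640 (A8).

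At P13 Kcnj10 had 1797, 2069 and 3499 in rd1 B4, A4 and B3 and 4.2 and 10.0 in rd1 A1 and B1. The congenic cells had 14.5 (A3), 617 (A4) and 7.2 (A5). As with Aqp4, the cells with 9 to 11 vascular markers on were the low ones. Over all conditions the medians of Kcnj10 ran from 6653 (rd1 at 5 weeks) through 5952 (adult WT), 4408 and 2964 (Rhod-ko at 8 and 25 weeks) and 1797 (rd1 at P13) to 14.5 (congenic FVB), and neighbours in this order overlapped.

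Kcnj2 encodes a strongly rectifying channel of the same family, described in Müller membranes that face neurons. It was on in 0 of 27 cells, and its signals ran from 0.8 to 108, the highest being WT cell MG1. Of the 15 inward rectifier genes measured, 5 reached 2000 in at least 1 cell, and Kcnj10 was the only one on in at least 14 cells. The promoters of Kcnj10 and Kcnj2 are shown because these channel genes of 1 family stood at opposite ends, on in most cells and in none. They are 300 bases each from RefSeq (GRCm38.p6), 250 before and 50 after the gene's start, both on the plus strand, at chr1:172340960-172341259 for Kcnj10 and chr11:111065914-111066213 for Kcnj2. Capitals mark GC boxes (GGGCGG) and CCAAT boxes (CCAAT), read on both strands.
Kcnj10: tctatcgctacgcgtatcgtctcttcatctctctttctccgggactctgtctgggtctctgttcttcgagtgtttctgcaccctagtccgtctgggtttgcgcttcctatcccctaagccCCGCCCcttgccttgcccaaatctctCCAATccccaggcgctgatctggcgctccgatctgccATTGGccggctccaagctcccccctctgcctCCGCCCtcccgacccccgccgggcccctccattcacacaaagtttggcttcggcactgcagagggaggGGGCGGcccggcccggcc
Kcnj2: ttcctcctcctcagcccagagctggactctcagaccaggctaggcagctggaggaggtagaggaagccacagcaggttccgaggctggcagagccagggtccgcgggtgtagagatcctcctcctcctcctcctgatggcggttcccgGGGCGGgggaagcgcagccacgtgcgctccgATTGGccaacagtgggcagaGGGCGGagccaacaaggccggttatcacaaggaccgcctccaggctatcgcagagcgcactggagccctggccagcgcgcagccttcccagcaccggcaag
The Kcnj10 window held 3 GC boxes and 2 CCAAT boxes, and the Kcnj2 window held 2 and 1. Neither held the letters TATAAA, and their GC content was 63.7% and 66.7%. Of 32851 promoters of that length, 35.7% held a GC box, 37.4% a CCAAT box and 13.6% TATAAA. These are letter matches, and the arrays do not measure their use.

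Dag1 was on in 20 of 27 cells and was the member with the widest spread within adult WT. Its WT signals were 1751 (MG1), 99.7 (MG16), 16606 (MG22), 17618 (MG15) and 27834 (MG3), so that 3 cells were high and the other two were not on. Rhod-ko cells at 8 weeks had 5033 (cell 2), 3720 (cell 1), 1024 (cell 3), 458 (cell 7) and 2570 (cell 8), all below the 3 high WT cells and all above MG16. Rhod-ko cells at 25 weeks were all on, at 7908 (A1), 3154 (A2), 10658 (A3), 6638 (A4) and 5234 (A5). The rd1 cells at 5 weeks were split, with 18649 in B1, 2358 in A8, 981 in A1 and 598 in A5 and A6. At P13 Dag1 differed from the channel genes: congenic cells had 3107 (A3), 3634 (A4) and 3955 (A5), and rd1 cells had 7495 (B4), 833 (A4), 4632 (A1), 5770 (B3) and 7598 (B1). It was on in all 5 cells with many vascular markers on, at 3107 to 7598, and in 15 of the other 22. Dag1 has 4 probe sets, of which 1 gave the highest signal in 25 of 27 cells.

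Atp1b1, the beta subunit gene most widely used outside glia, was on in 12 of 27 cells and in none of the adult WT cells. Those had 486 (MG1), 196 (MG16), 171 (MG22), 336 (MG15) and 1198 (MG3). Rhod-ko cells at 8 weeks had 517 (cell 2), 4015 (cell 1), 14128 (cell 3), 4580 (cell 7) and 5631 (cell 8), so 4 of 5 lay above every WT cell. Rhod-ko cells at 25 weeks had 118 (A1), 10105 (A2), 2705 (A3), 1717 (A4) and 635 (A5). The rd1 cells at 5 weeks had 12166 (A1), 1130 (A5 and A6), 277 (B1) and 16277 (A8), with high and low cells in the same condition. At P13 rd1 cells had 4794 (B4), 11033 (A4), 1035 (A1), 2147 (B3) and 2581 (B1), and congenic cells had 1339 (A3), 194 (A4) and 101 (A5). The signal of rd1 P13 A4 came from a probe set of Atp1b1 that gave the highest value in that cell alone, and of the 5 probe sets the other highest values came mostly from a pair, in 15 and 10 cells.

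Amacrine cell markers moved with Atp1b1. Of 6 such markers, 4 were on in rd1 5 weeks A1 and in Rhod-ko 25 weeks A2, and 3 in rd1 5 weeks A8 and in rd1 P13 A4. These cells held 4 of the 5 highest signals of Atp1b1, and the fifth, Rhod-ko 8 weeks cell 3, had 1 amacrine marker on. Over 27 cells Spearman's rho of Atp1b1 with the number of amacrine markers on was 0.61, and over the 22 cells with few vascular markers on it was 0.55. For the other neuron lists rho over 27 cells was 0.22 (rod), 0.24 (ganglion cell), 0.30 (bipolar) and 0.41 (cone), and for astrocyte markers it was 0.48. The number of 6 pigment epithelium markers on was 0 or 1 in every cell and gave a rho of 0.66. These are descriptions over cells that share amplification and scaling, and the part of RNA from other cells in the signals of Atp1b1 was not tested.

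Atp1b2, the beta subunit gene first described as an adhesion molecule on glia, was on in 20 of 27 cells. Adult WT cells had 16479 (MG1), 2660 (MG16), 10357 (MG22), 7951 (MG15) and 19426 (MG3). Rhod-ko cells at 8 weeks had 3635 (cell 2), 376 (cell 1), 4024 (cell 3), 1318 (cell 7) and 385 (cell 8), and only cells 2 and 3 were on. Rhod-ko cells at 25 weeks were close together at 10788 (A1), 15384 (A2), 11036 (A3), 12272 (A4) and 12419 (A5), all within the WT range. The rd1 cells at 5 weeks had 8747 (A1), 8819 (A5 and A6), 25194 (B1) and 6633 (A8), and all were on. At P13 rd1 B4, A4 and B3 had 11827, 9268 and 8665, rd1 A1 and B1 had 819 and 77.9, and congenic A3, A4 and A5 had 1613, 3028 and 630. One probe set of 2 gave the highest signal in all 27 cells.

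The 8-week Rhod-ko cells, from the time of rod loss, were set against adult WT cells, which are labelled as older than 25 weeks. Those WT cells were also published earlier, so age, that earlier profiling and genotype cannot be told apart. Differences here are between group medians on the log2 scale after raising signals under 1000 to 1000, and 2-fold (1 on that scale) was the size rule. Aqp4 was lower by 12.8-fold (log2 -3.68), with no overlap of the cells. This rests on its brightest probe set, and a dimmer one overlapped, at 435 to 2906 against 61.3 to 8642 in WT. Atp1b2 was 7.86-fold lower (log2 -2.97) and Dag1 6.46-fold lower (log2 -2.69), both with overlapping cells, and Atp1b1 was at least 4.58-fold higher (log2 2.20, WT at the floor). Kcnj10 differed by log2 -0.43, below the size rule, and by 0.35 after quantile normalization and 0.15 without cells 7 and 8. Of the 7 members, 1 was at least 2-fold higher and 3 lower, against 6.17% and 5.12% of all genes. Members without overlap numbered 0 higher and 1 lower, against 0.747% and 0.522% of all genes. Leaving out any 1 cell moved Aqp4 between log2 -3.80 and -3.28. A further member lost its overlap, for 2 in all, without cell 2 (Atp1b1) or without WT MG16 (Atp1b2). The value of Dag1 rested on the high WT cells: it was log2 -1.11 without MG22 and -1.07 without MG15 or MG3. Cells 7 and 8 had 8 and 7 of 12 rod markers on, against 2 to 4 in the other three, and cell 7 also 5 of 10 microglia markers. Without these cells Aqp4 was log2 -2.89 and still without overlap with WT, Atp1b2 -1.51 and Dag1 -2.16.

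**Figure D2:**
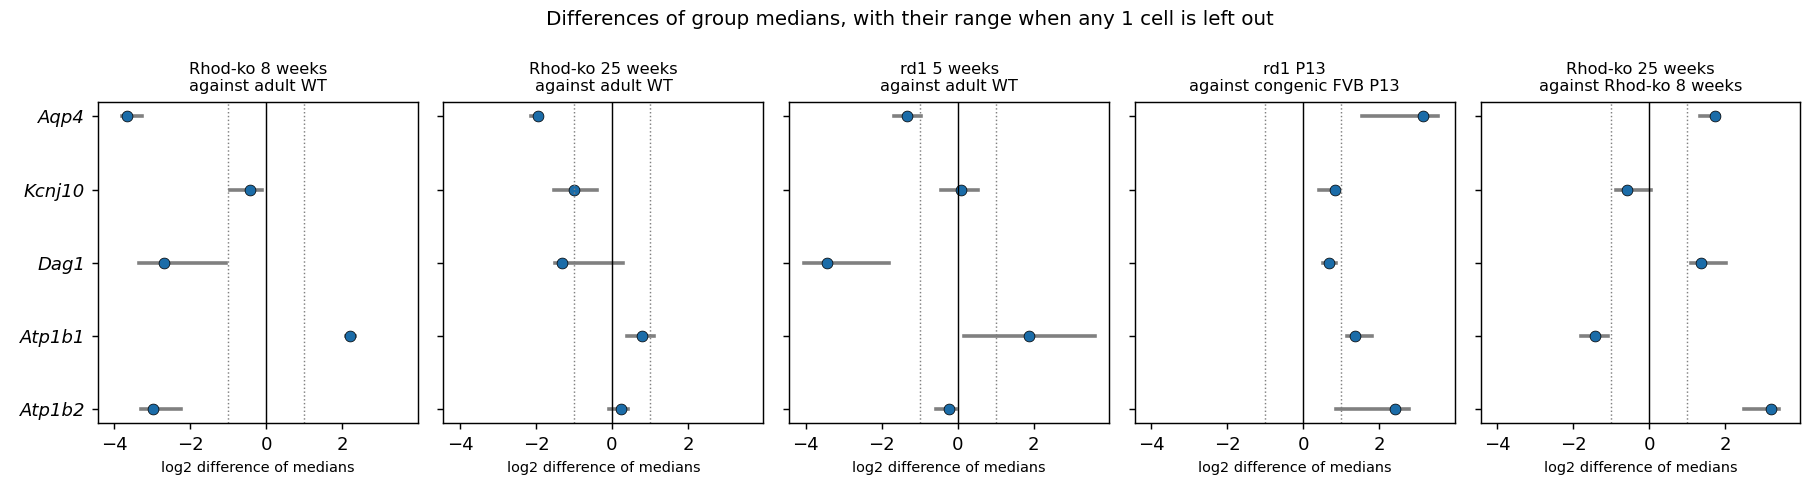
Difference of group medians on the log2 scale (horizontal axis) for the 5 members on in at least 1 cell, in 5 comparisons; points are all cells, grey bars the range when any 1 cell is left out, dotted lines 2-fold. Aqp4 lies left of zero in the 3 comparisons with adult WT, at -3.68, -1.96 and -1.32, and the grey bar of Dag1 crosses zero for Rhod-ko at 25 weeks.

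The 25-week Rhod-ko cells, from the time of cone loss, were set against the same adult WT cells. As these WT cells were published earlier, genotype and that earlier profiling cannot be told apart. Aqp4 was 3.88-fold lower (log2 -1.96), with cell A5 at 26362 above WT MG16 at 22766, and without either of these cells it had no overlap. Kcnj10 was 2.01-fold lower (log2 -1.01) and Dag1 2.50-fold lower (log2 -1.32), with overlap in both. Atp1b2 differed by log2 0.24 and Atp1b1 was at least 1.72-fold higher (log2 0.78), both below the size rule. So 0 members were higher and 3 lower by 2-fold, against 7.9% and 3.7% of all genes, and 0 were without overlap in either direction, against 0.357% higher and 0.159% lower. Of these 3, only Aqp4 stayed past 2-fold in every setting tried, between log2 -3.07 and -1.22. Kcnj10 fell under the size rule without WT MG22 or MG3 (-0.70) or without A1 or A4 (-0.39) or A2 (-0.42), and Dag1 turned to 0.26 without MG22 and 0.30 without MG15 or MG3. When arrays were scaled to the same 90th percentile, all genes went from 1438 higher and 674 lower to 1003 and 1373, and Atp1b2 moved to log2 -1.32. After quantile normalization the split over all genes was 1080 higher and 834 lower.

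The rd1 cells at 5 weeks were set against adult WT as well. The 2 conditions differ in strain, age and genotype and in the earlier profiling of the WT cells, and these cannot be told apart. Aqp4 was 2.50-fold lower (log2 -1.32) and Dag1 10.8-fold lower (log2 -3.43). Atp1b1 was at least 3.71-fold higher (log2 1.89). Kcnj10 (log2 0.10) and Atp1b2 (log2 -0.24) differed by less than the size rule. In all 1 member was at least 2-fold higher and 2 lower, against 6.35% and 4.25% of all genes, and 0 were without overlap, against 0.313% higher and 0.11% lower. Aqp4 came to log2 -0.96 without A1 or without the averaged cell, and lost its overlap without WT MG16. Atp1b1 came to 0.18 without A1 or A8, and to 0.19 with A5 and A6 counted as separate cells, but to 3.60 without B1 or the averaged cell. Dag1 was log2 -1.85 without WT MG22 and -1.81 without MG15 or MG3. These 3 comparisons share their 5 WT cells, so their values stand side by side and are not independent of each other.

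At P13 the question was how rd1 cells at the loss of rods differ from congenic cells of the same age. Aqp4 was 8.81-fold higher in rd1 (log2 3.14), Atp1b2 5.37-fold higher (log2 2.43) and Atp1b1 at least 2.58-fold higher (log2 1.37). Dag1 (log2 0.67) and Kcnj10 (at least 1.80-fold, log2 0.85) were below the size rule. This gave 3 members higher and 0 lower, against 4.79% and 6.41% of all genes, and 0 without overlap, against 0.484% higher and 1.06% lower. All 3 congenic cells had 10 or 11 vascular markers on and 3 to 7 of 15 MGC markers, so genotype and this marker profile cannot be told apart in the control. Without rd1 A1 and B1, which had the same profile, 4 members were without overlap: Aqp4 at log2 3.95, Atp1b2 at 2.52, Atp1b1 at 2.26 and Kcnj10 at 1.05, all higher in rd1. In that setting 2.75% of all genes were without overlap higher and 3.31% lower, more than with all cells, and 0 members were lower. Every rd1 cell then differed from every congenic cell in marker profile as well as in genotype, and these cannot be told apart. With 1 cell left out, Dag1 had no overlap without rd1 A4, and Atp1b1 none without rd1 A1 or congenic A3. Without B4 or B3, Aqp4 came to log2 1.54, and to 1.95 without A4. Atp1b2 came to 0.87 without B4 or A4 and 0.92 without B3.

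**Figure D3:**
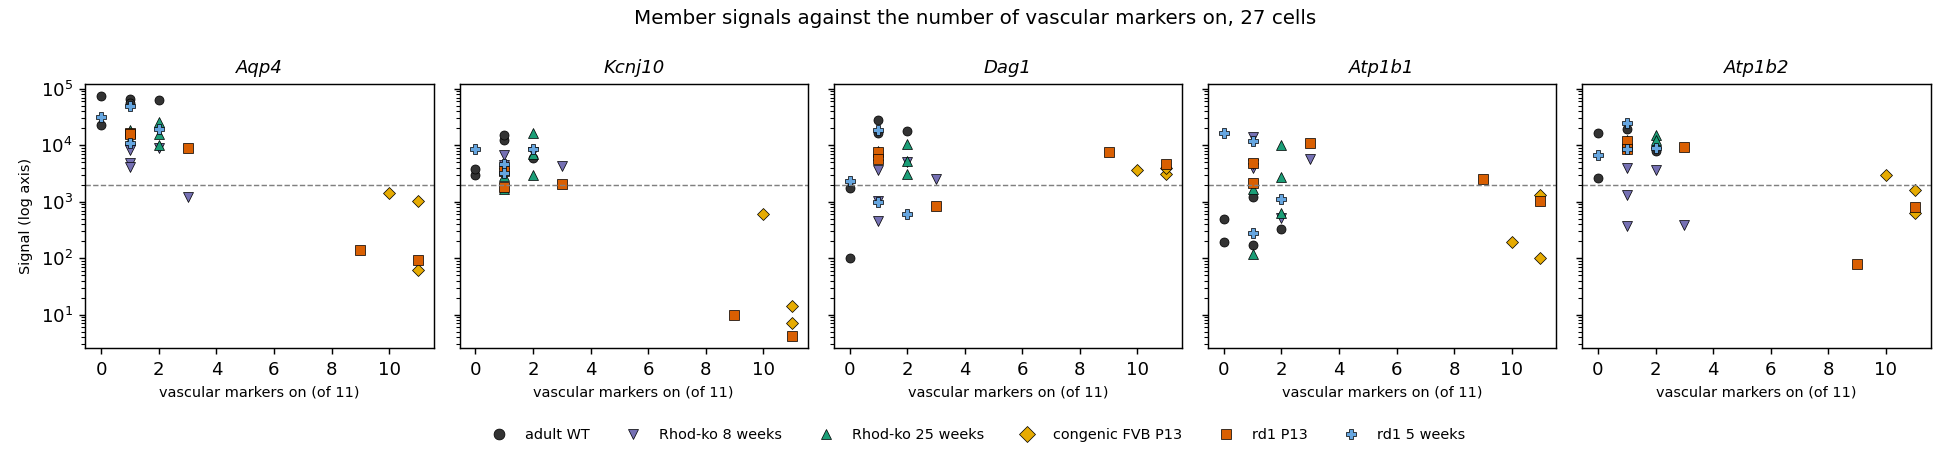
Signal of the 5 members on in at least 1 cell (vertical log axis) against the number of 11 vascular markers on (horizontal axis), 1 point per cell, with symbols by condition. Aqp4 was at most 1410 and Kcnj10 at most 617 in the 5 cells with 9 to 11 markers on, where Dag1 was 3107 to 7598.

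Across all ages, the 5 cells with 9 to 11 vascular markers on had Aqp4 at 62.1 to 1410 and Kcnj10 at 4.2 to 617, while the other 22 had Aqp4 at 1236 to 75747 and Kcnj10 at 1706 to 16548. Atp1b2 was on in 1 of the 5 and in 19 of the 22, and Atp1b1 in 1 and in 11. Grouping cells by these markers was done after their values were seen, and it is no condition of the study. Whether the 5 cells were MGCs with vascular RNA or cells of another type was not tested.

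The 2 ages of the Rhod-ko were set against each other after their values had been seen. At 25 weeks Aqp4 was 3.30-fold higher (log2 1.72) and Atp1b2 9.31-fold higher (log2 3.22) than at 8 weeks, both without overlap. Dag1 was 2.58-fold higher (log2 1.37), Atp1b1 2.67-fold lower (log2 -1.42) and Kcnj10 differed by log2 -0.57. That made 3 members higher and 1 lower, against 7.33% and 4.16% of all genes, and 2 higher and 0 lower without overlap, against 1.13% and 0.846%. Atp1b2 stayed between log2 1.76 and 3.22 under the other settings. Aqp4 came to 0.66 when arrays were scaled to the same 90th percentile, where all genes went from 1333 higher and 757 lower to 877 and 1239, and to 0.93 without cells 7 and 8. Dag1 came to 0.57 after quantile normalization, 0.87 at the same 90th percentile and 0.84 without cells 7 and 8, each under the size rule. Kcnj10 came to -1.49, -1.68 and -1.16 in the same 3 settings, each past it, and to 0.01 to 0.04 without A1, A2 or A4. Atp1b1 was -0.99 with group means. Quantile normalization gave 907 genes higher and 1045 lower.

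Because these differences move with the scaling, ratios within an array, in which the scale cancels, were added after the values were seen. Only their differences between conditions are read, since each probe set has its own brightness. The log2 ratio of Aqp4 to Kcnj10 (signals under 100 raised to 100) was 1.91 to 4.65 in adult WT and -1.79 to 0.35 in 8-week Rhod-ko cells, with no overlap. At 25 weeks it was 0.53 to 2.89, above all 8-week cells and overlapping WT. In rd1 at 5 weeks it was 1.18 to 3.96. The ratio of Atp1b2 to Atp1b1 was 3.76 to 5.92 in adult WT and -3.87 to 2.81 in 8-week Rhod-ko cells, again without overlap, and 0.61 to 6.52 in 25-week ones. In rd1 at 5 weeks its 4 cells ran from -1.30 to 6.51, a spread wider than that of WT.

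**Figure D4:**
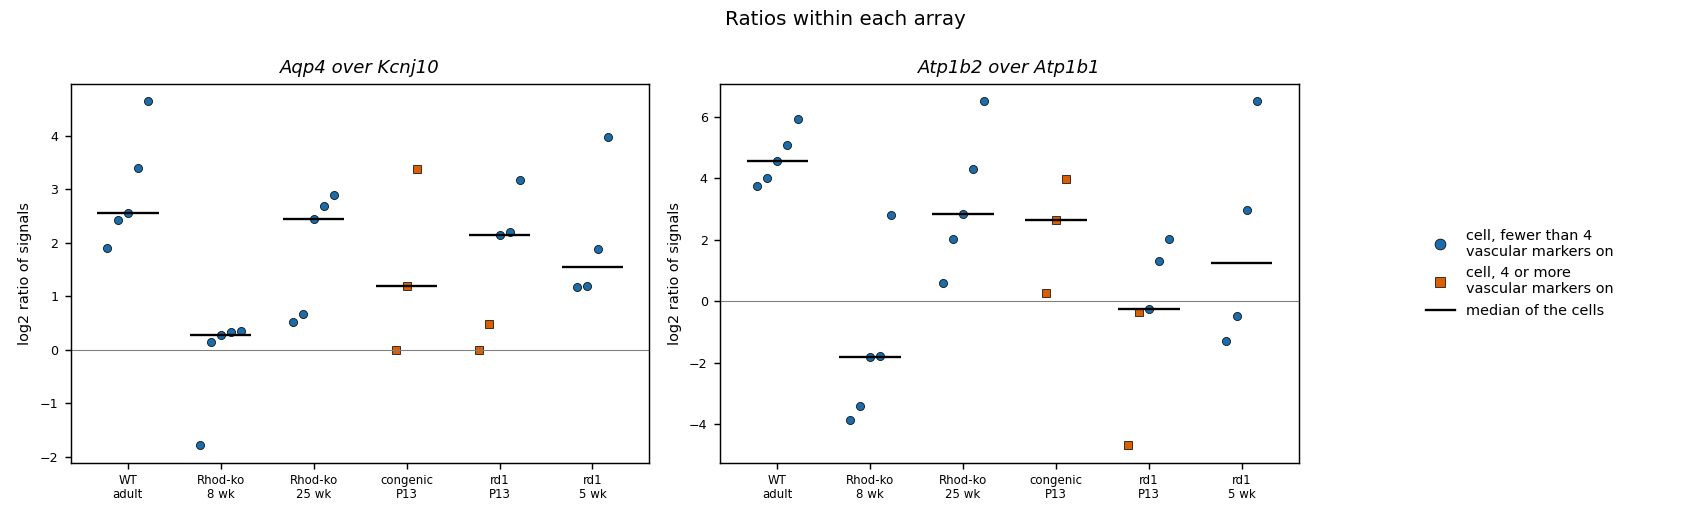
Log2 ratio within each array (vertical axis) of Aqp4 to Kcnj10 and of Atp1b2 to Atp1b1 by condition; circles are cells with fewer than 4 vascular markers on, squares those with 4 or more, bars medians. For both ratios the 5 Rhod-ko cells at 8 weeks lie below the 5 adult WT cells.

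Ratios to Glul, the glutamine synthetase gene typical of MGCs, gave another view. The median signal of Glul was 89714 for adult WT, 31288 for 8-week Rhod-ko and 38159 for 25-week Rhod-ko, where its highest cell (42077) lay below the lowest WT cell (64815). The log2 ratio of Aqp4 to Glul had a median of -1.51 in WT and -2.85 in Rhod-ko at 8 weeks, with overlapping cells (-2.32 to -0.09 and -4.55 to -1.78). At 25 weeks it was -1.75 to -0.55, which overlapped WT. The ratio of Atp1b2 to Glul at 25 weeks (-1.78 to -1.31) lay above every WT cell (-4.61 to -2.76) and every 8-week cell (-7.52 to -3.11). Set against Glul, then, the low Aqp4 of the 8-week cells was not apart from WT, and Atp1b2 at 25 weeks was. Both ratios also carry the lower Glul medians of the Rhod-ko cells. The Atp1b2 signals themselves, at 10788 to 15384 in 25-week cells, lay within the WT range of 2660 to 19426. By its place among all genes of the same cell, Aqp4 stood at percentiles of 98.7 to 99.95 in WT, 83.5 to 95.6 in 8-week and 96.9 to 99.7 in 25-week Rhod-ko cells, and Atp1b2 at 87.0 to 98.7, 50.8 to 91.8 and 97.2 to 98.9.

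The members did not vary as 1 block over the cells. Spearman's rho over 27 cells was 0.75 between Aqp4 and Atp1b2 and 0.57 between Aqp4 and Kcnj10. Over the 22 cells with few vascular markers on it was 0.59 for the first pair, 0.22 for the second and -0.57 for Aqp4 and Atp1b1. Dag1 and Atp1b2 reached 0.51 there. The cells share amplification and scaling, and these values are descriptions.

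Among 5225 genes on in at least 5 cells, those whose ranks were most like a member's were named by rule, the first 3 for each. For Aqp4 they were Gpm6a (rho 0.96), a membrane glycoprotein gene of the proteolipid family, Acsl3 (0.93), which activates fatty acids, and Synpr (0.93), known as a synaptic vesicle protein gene. The medians of Gpm6a were 48894 for adult WT, 2899 and 21516 for 8-week and 25-week Rhod-ko and 37657 for rd1 at 5 weeks, the same order as Aqp4 in these conditions. Without the 5 cells with many vascular markers on, its rho with Aqp4 was 0.94. For Atp1b2 they were Atp5g3 (0.81), a subunit gene of the mitochondrial ATP synthase, Gpm6b (0.79), of the same family as Gpm6a, and Efemp1 (0.77), an extracellular matrix gene. For Kcnj10 they were the membrane collagen gene Col23a1 (0.78), the actin and integrin adaptor gene Parva (0.75) and Tlcd4 (0.74). Dag1 was less closely followed, by Creb3l2 (0.73), a transcription factor gene, the RNA-binding protein gene Tia1 (0.63) and the proteasome subunit gene Psma7 (0.63). For Atp1b1 they were genes known from neurons: Sncb (0.77), a synuclein gene, Calb2 (0.75), the calretinin gene, and Cartpt (0.74), a neuropeptide gene. Calb2 is also among the 6 amacrine markers counted above, so its likeness to Atp1b1 is not separate from theirs. It had a signal of 13.7 to 738 in adult WT, 133 to 943 in 8-week Rhod-ko and up to 10808 in rd1 at 5 weeks. In 8-week Rhod-ko Atp1b1 was on in 4 of 5 cells, Sncb in 2, and Calb2 and Cartpt in 0.

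The wider lists of partner genes were described by counts, and each list's median difference was 0, as was that of all genes, in every comparison except for the cotransporter genes in rd1 at 5 weeks (log2 0.01). Of 11 aquaporin genes 5 were on in at least 1 cell, of 12 two-pore potassium channel genes 3, of 15 dystrophin complex and ligand genes 14, of 5 dystroglycan glycosylation genes 4, of 11 sodium pump subunit genes 9, of 8 cation chloride cotransporter genes 6, and of 12 genes of cell volume control and gap junctions 9. In Rhod-ko at 8 weeks against WT, 2 dystrophin complex genes were at least 2-fold higher and 4 lower. For sodium pump genes the counts were 2 and 4. These counts include the members, and the lower genes of the dystrophin complex list include Cav1. Of all genes, 6.17% were higher and 5.12% lower. In Rhod-ko at 25 weeks, where 7.9% of all genes were higher and 3.7% lower, 3 cotransporter genes and 3 cell volume genes were higher and 0 lower, 1 sodium pump gene was higher and 3 lower, and 3 dystrophin complex genes were higher and 1 lower. The split over all genes turned to more lower than higher when arrays were scaled to the same 90th percentile. At P13, where 4.79% of all genes were higher in rd1 and 6.41% lower, 5 sodium pump genes were higher and 1 lower, while 3 dystrophin complex genes, 2 cell volume genes and 1 cotransporter gene were lower and 0 of these lists higher. All 3 control cells of that comparison had 10 or 11 vascular markers on.

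Cav1, which encodes the coat protein of caveolae and was counted in the dystrophin complex list, was on in 26 of 27 cells. Its signal was 18129 to 55054 in adult WT and 1436 to 10440 in 8-week Rhod-ko cells (log2 -2.71), without overlap, and 12836 to 38918 in 25-week ones, above all 8-week cells. It had thus the order of Aqp4 in these 3 conditions, but not with rd1 at 5 weeks added. There the median of Cav1 was 53455, above the WT median of 45110, while that of Aqp4 was below WT. Agrn, the gene of the dystroglycan ligand agrin, was on in 21 cells, with medians of 968 in WT, 2787 and 5054 in 8-week and 25-week Rhod-ko and 10089 in rd1 at 5 weeks, and had its highest median, 19704, in the congenic cells (17573 to 33122). The single highest signal was 33930, in rd1 5 weeks A8. The congenic cells all had 10 or 11 vascular markers on. The rd1 P13 cells A1 and B1, with the same profile, had Agrn at 22499 and 26942, and the other rd1 P13 cells had 1202 to 6370. Utrn, the gene of the dystrophin homologue utrophin, was on in 14 cells, 2 of 5 in WT and 4 of 5 in Rhod-ko at 25 weeks. Its median was 1681 in WT and 3831 at 25 weeks. Yet WT MG1 (29430) and MG16 (16344) lay above every 25-week cell, of which the highest had 4562.5. At P13 Utrn was strongest, at 9091 to 18076, in congenic A3 and A5 and rd1 A1 and B1. These all had many vascular markers on, as did congenic A4, where Utrn was 542. In rd1 B4, A4 and B3 it ranged from 209 to 2821.

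Fxyd1, whose product regulates the sodium pump, went the other way from Atp1b2 in the Rhod-ko. Adult WT cells had 64.1 (MG1), 5659 (MG16), 82.9 (MG22), 18647 (MG15) and 6659 (MG3). Rhod-ko cells at 8 weeks had 24226 to 75324, above every WT cell (log2 3.05), and those at 25 weeks 12383 to 22812, below every 8-week cell (log2 -1.33). In rd1 at 5 weeks it was 11559 to 74478, and in the congenic cells, all with 10 or 11 vascular markers on, 5.8 to 23.9. Atp1b3, the remaining beta subunit gene measured, was on in all 5 WT cells at 4555 to 29362 and had medians of 2251 in 8-week Rhod-ko, 5457 in 25-week Rhod-ko and 2649 in rd1 at 5 weeks.

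Mlc1, a membrane protein gene of glial endfeet involved in volume regulation, reached 2000 in all 5 Rhod-ko cells of each age, at 6154 to 52634 and 8621 to 22994, and in 2 of 5 WT cells, which ranged from 22.1 to 43844. Kcnk1, a two-pore potassium channel gene, was not on in any WT cell (111 to 1386) while 4 of 5 Rhod-ko cells at the age of 25 weeks had it on (1840 to 16951), all above WT (log2 2.41). It was named here because of this lack of overlap, which 0.357% of all genes had in that direction. At 8 weeks it was 816 to 7594 and overlapped WT. Kctd2 was on in 18 cells, with medians of 2041 in WT and 5924 and 4664 in 8-week and 25-week Rhod-ko.

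**Figure D5:**
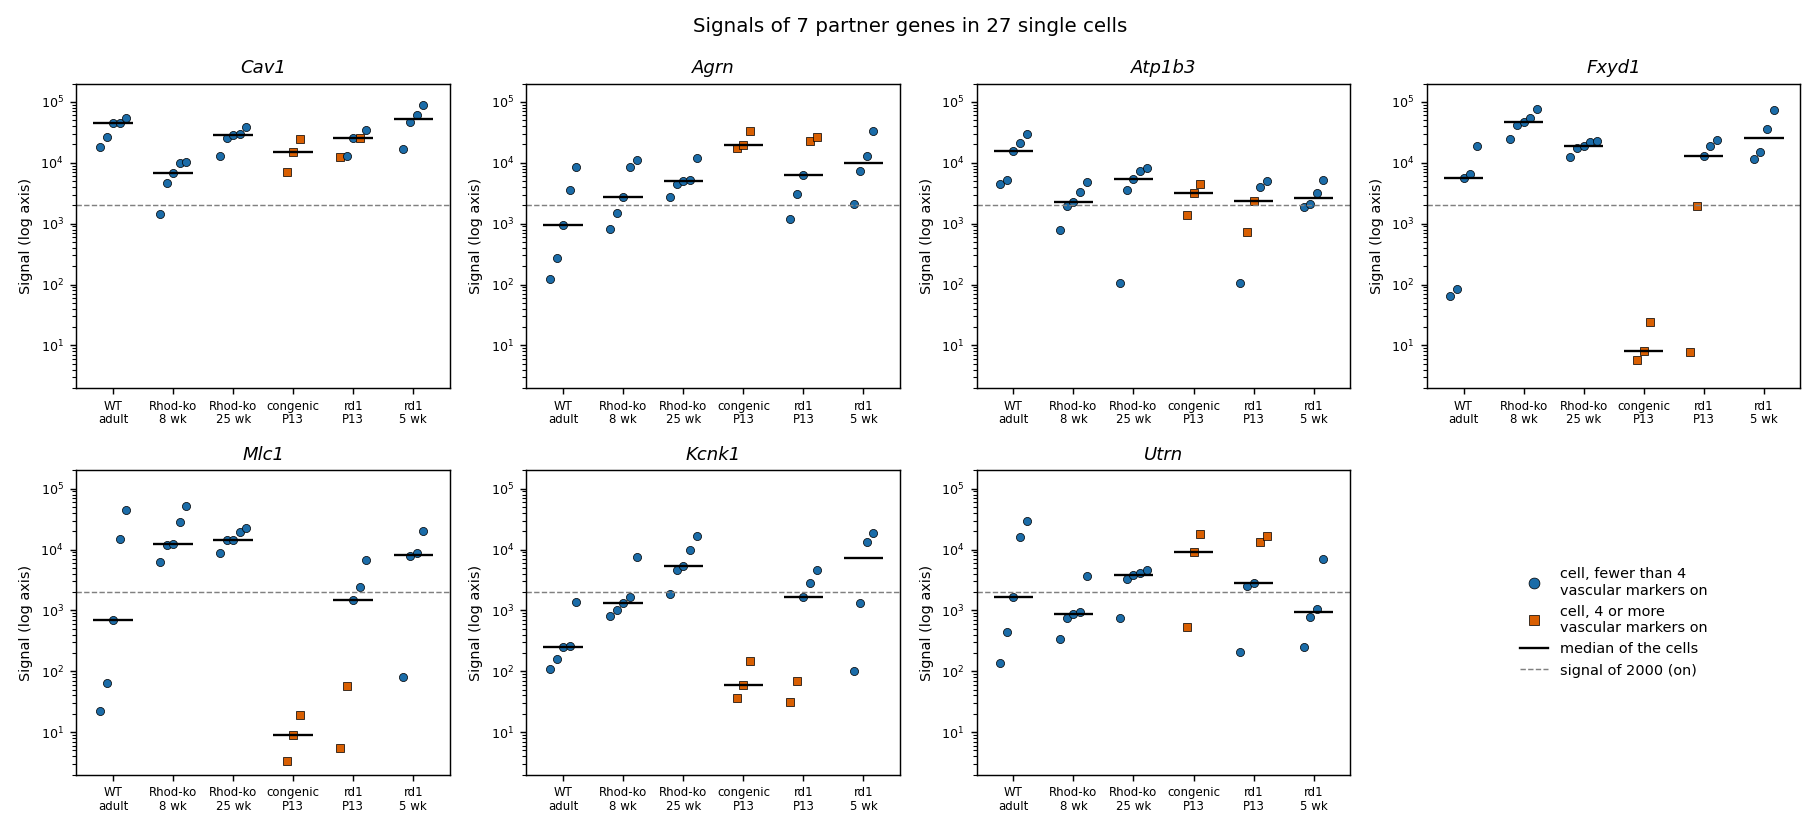
Signal of 7 partner genes (vertical log axis, MAS5 signal) in each of 27 cells by condition; symbols, bars and the dashed line at 2000 are as for the members. Cav1 lies lowest and Fxyd1 highest in Rhod-ko at 8 weeks among the adult conditions. Fxyd1 and Mlc1 are under 100 in the congenic cells, all of which are squares.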

How the data were processed

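Single MGCs were profiled on 28 Affymetrix whole-genome mouse arrays. The deposited values are intensities, the MAS5 signals that the authors computed per probe set, and no replicates were pooled; their trimmed mean (2% at each end) was the same on each array. Counts, depth and detection calls were not used here, and the number of cells limits precision. Of 45101 probe sets, the platform annotation gave 34958 a single symbol, 932 several and 9211 none; 34754 of the single ones matched RefSeq by Entrez number. As in the study's methods, each gene was read from its brightest probe set, cell by cell. The value of 2000, which the study applied as a filter on median expression, was taken here as the mark of a gene on in a cell. Signals were floored at 1000, and group medians were compared on the log2 scale with Python 3.11.15, pandas 2.3.3, NumPy 2.4.6 and SciPy 1.17.1; the size rule was 2-fold. The median comparison was tested on simulated bright genes that varied less between cells than many members did. That checks the calculation and not its precision with so few cells. No p-value was computed, since no label names an animal.

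Named genes were the 7 members, partner genes on in at least 14 cells or at least 2-fold apart without overlap, and the 3 genes most like each member. The members, lists and markers were chosen with earlier results of these data known. PCR amplification of a single cell's cDNA can lose or inflate transcripts, so a low signal does not show that a gene is silent. Alternatives were other floors, thresholds, scalings, probe set rules, means, controls and left-out cells. Some genes of the partner and marker lists are not reported here.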

Additional observations from a re-analysis of the deposited data

Results flagged for a closer look

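Among 24 pairs of a member and a condition with 4 or 5 cells, 2 cells stood apart from the others of their condition by Dixon's criterion on the log2 scale after raising signals under 1000 to 1000, which by chance marks about 1 group in 20. Aqp4 in adult WT cell MG16 had a signal of 22765.5, against 56351 to 75747 in the other 4 WT cells, and the gap was 0.754 of the whole range on that scale and 0.634 on the signal scale. Dag1 in rd1 P13 cell A4 had 833.3, against 4632 to 7598 in the other 4 rd1 P13 cells, with a gap of 0.756 of the range on the log2 scale and 0.562 on the signal scale. The limit for 5 cells is 0.71, so on the signal scale neither cell stood apart.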

How the results depend on the processing

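Of 574 differences of single members under other settings, 533 stayed on the same side of the size rule, 12 passed it, 23 no longer did, and 6 changed sign while past it in either setting. Those 6 were Dag1 for Rhod-ko at 25 weeks (log2 -1.49 to 0.30 with any 1 cell left out, 0.26 without WT MG22 and 0.30 without MG15 or MG3), Atp1b2 in the same comparison (-1.32 at the same 90th percentile), and Aqp4 and Atp1b2 for rd1 at 5 weeks (4.59 and 2.44 with the congenic P13 cells as control). A further 15 changed sign under the size rule: Kcnj10 for Rhod-ko at 8 weeks (2 settings), between the Rhod-ko ages (3) and for rd1 at 5 weeks (6, down to -0.43), and Atp1b2 for 5-week rd1 (2, up to 0.44) and 25-week Rhod-ko (2). The congenic control was a change of the cells compared and not of processing, to P13 cells that all had 10 or 11 vascular markers on. Of 246 counts of members, 214 were unchanged or within 1.5 times.

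For Rhod-ko at 8 weeks the members without overlap numbered 1 to 2 with any 1 cell left out. For Rhod-ko at 25 weeks the members higher came to 1 with a floor of 500 or with group means and to 0 to 1 with 1 cell left out; those lower came to 1 with group means and to 1 to 3 with 1 cell left out; those without overlap came to 1 at the same 90th percentile and to 0 to 1 with 1 cell left out. For rd1 at 5 weeks the members higher came to 0 with A5 and A6 as 2 cells, to 4 with the congenic control and to 0 to 1 with 1 cell left out; those lower came to 1 with the congenic control and to 1 to 2 with 1 cell left out; those without overlap came to 3 with the congenic control and to 0 to 1 with 1 cell left out. For 5-week rd1 against the congenic control the share over all genes was not computed, so its counts of members are not read as a result. At P13 the members without overlap came to 4 without rd1 A1 and B1 and to 0 to 1 with 1 cell left out.

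For the Rhod-ko ages against each other, a comparison chosen after seeing the data, the members higher came to 1 at the same 90th percentile or without cells 7 and 8. Those lower came to 2 after quantile normalization, at the same 90th percentile and without cells 7 and 8, and to 0 with group means. Those without overlap came to 1 at the same 90th percentile. Where fewer cells entered, the setting itself removed values; elsewhere the cause was not tested. The number of cells on moved with the threshold: at 500, Atp1b1 was on in 19 cells and Aqp1 in 3.

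No paired analysis was possible because a cell's name only numbers a pick and no test was run. Each condition holds 3 to 5 cells, and differences between animals cannot be told apart from differences between conditions.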
